A study of Mus musculus with 6 samples.

Results

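The 33 genes described here encode enzymes and regulators of sterol and fatty acid synthesis. They were listed by name as pathway members regulated by the sterol regulatory element-binding proteins. The rule itself uses no measured value, but the list was drawn up with earlier results of these data known. They were 33 of the 15469 genes in the deposited table, and all 33 were among the 11424 genes with enough counts to be tested. By role they fell into 5 groups: 8 genes of the mevalonate and prenyl steps, 10 of the sterol ring steps, 6 of sterol sensing and transport, 3 of fatty acid synthesis, and 6 of desaturation and elongation.

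RNA was measured in 6 libraries of peritoneal macrophages from mice of a model named CAIA, an abbreviation the labels do not spell out. Macrophages with RELM-α on their surface, a resistin-like protein, were obtained by flow sorting after peritoneal lavage and were plated in culture before RNA extraction. The 3 libraries labelled KO came from cells described as PU.1-deleted and the 3 labelled WT from control cells. The stated purpose was to study PU.1, the ETS-family transcription factor encoded by Spi1, in ferroptosis of these macrophages. The sources used here do not give the means of deletion, the strain, age and sex of the mice, or the time in culture. The labels do not state whether replicate libraries came from different animals or cultures, so a p-value measures the spread between these libraries alone, and that spread may be technical.

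Cells make cholesterol from acetyl-CoA through mevalonate, isoprenoids, squalene and a series of sterol intermediates, and they make fatty acids from the same precursor. Both branches are controlled by SREBP1 and SREBP2, membrane-bound transcription factors that SCAP escorts from the endoplasmic reticulum to the Golgi for cleavage when membrane sterol is low and that INSIG proteins hold back when it is high. Macrophages also take up sterol from engulfed cells, and their desaturases make the polyunsaturated fatty acids whose oxidation is part of ferroptosis.

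SREBPs bind sterol regulatory elements near the start of their target genes, usually beside a CCAAT box bound by NF-Y, and they can also bind the E-box CACGTG. RefSeq windows of GRCm38.p6 from 250 bases before to 50 after an annotated start were found for 26 of the 33 genes. Some genes had more than 1 window, and a gene was counted if any of its windows held the motif. CCAAT, searched on both strands, was found for 21 of these 26 genes (80.8%), beside 43.5% of the 9188 tested genes with a window. The GC box GGGCGG was also found for 21 (80.8%, beside 69.1%) and CACGTG for 6 (23.1%, beside 12.1%). TCACNCCA, a short form of the sterol regulatory element chosen after the windows were seen, was found for 3, namely Hmgcs1, Msmo1 and Srebf2 (11.5%, beside 4.46%). The longer TCACNCCAC, which contains it, was found for 1, Hmgcs1 (3.85%, beside 1.38%). These are matches of letters, not measured binding.

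Parts of 3 windows that hold no exon are shown because Hmgcs1 lay below WT in all KO libraries, while Insig1 and Srebf2 lay above WT in 2 of 3. They are on the plus strand of GRCm38.p6, at chr13:119690101-119690350 for Hmgcs1, chr5:28071162-28071362 for Insig1 and chr15:82147019-82147180 for Srebf2. Capitals mark TCACNCCA, CACGTG and CCAAT, the last also as its complement ATTGG.
Hmgcs1: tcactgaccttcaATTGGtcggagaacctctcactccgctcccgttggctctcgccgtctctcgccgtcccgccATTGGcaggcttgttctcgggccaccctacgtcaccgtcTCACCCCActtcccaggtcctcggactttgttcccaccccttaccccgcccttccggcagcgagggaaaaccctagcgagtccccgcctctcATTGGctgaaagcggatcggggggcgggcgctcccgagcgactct
Insig1: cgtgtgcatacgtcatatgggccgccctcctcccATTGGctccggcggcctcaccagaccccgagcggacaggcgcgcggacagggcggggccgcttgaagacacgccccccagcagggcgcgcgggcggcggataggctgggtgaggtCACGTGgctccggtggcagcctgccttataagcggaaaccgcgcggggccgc
Srebf2: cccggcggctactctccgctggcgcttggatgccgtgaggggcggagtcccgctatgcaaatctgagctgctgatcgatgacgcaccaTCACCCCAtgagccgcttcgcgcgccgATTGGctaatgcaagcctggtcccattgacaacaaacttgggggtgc
The Hmgcs1 stretch held 1 short sterol regulatory element, with its first base at -137 from the gene start, and 3 CCAAT boxes. The Srebf2 stretch held 1 such element at -162 and 1 CCAAT box at -135. In the Insig1 stretch CACGTG began at -101 and a CCAAT box at -216.

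The libraries held 17280855 to 18632623 counts, of which the 33 genes took 0.128% to 0.184%. KO replicate 1 stood apart: its log2 CPM (counts relative to the TMM-scaled size of the library) correlated across genes at Pearson's r of 0.902 and 0.922 with the other KO libraries and 0.955 to 0.959 with the WT libraries, while KO replicates 2 and 3 correlated at 0.990. Spi1, the targeted gene, measured 277, 285 and 320 CPM for KO and 323, 340 and 284 CPM for WT, a log2 difference of -0.10 (SE 0.106, edgeR adjusted p = 0.561), and +0.05 on the log2(TPM + 1) scale. With a correction for transcript GC content and length and without KO replicate 1, the Spi1 difference was -0.23 (edgeR adjusted p = 0.0202). The Spi1 transcript was thus not called lower with all 6 libraries, and the extent of the deletion was not tested. The groups are therefore called by their labels throughout. The 7 macrophage markers, all present, summed to 19698 CPM in KO replicate 1 and 35312 to 44213 CPM in the other 5 libraries. Most of that sum was Lyz2 (13171 CPM in KO replicate 1 against 29743 to 36709 CPM). The other markers did not move together. Csf1r (2900 CPM in KO replicate 1 against 1560 to 1567 CPM in WT) and Adgre1 (864 against 662 to 711 CPM) were above WT in all 3 KO libraries, and Csf1r was called higher. Cd68 (2114, 2125 and 2235 CPM in KO against 2300 to 2642 CPM in WT) was below WT in all 3. So was Mertk (81.9, 125 and 131 against 162 to 217 CPM). Fcgr1 and Itgam were below WT in KO replicate 1 and above it in the other KO libraries. Monocyte and small peritoneal macrophage markers summed to 162 CPM in KO replicate 1, 11.9 and 13.9 CPM in KO replicates 2 and 3 and 40.0 to 58.6 CPM in WT. Outside KO replicate 1 most of that sum was H2-Ab1 (8.37 and 9.59 CPM in KO replicates 2 and 3 against 35.8 to 51.4 CPM in WT). Its other members differed. Irf4 (7.65, 1.85 and 1.77 against 1.16 to 1.22 CPM) was above WT in all 3 KO libraries and Cd226 was below WT in all 3. Ccr2 and Ly6c2 were above WT in KO replicate 1 only. Of 5 large peritoneal macrophage markers, 3 were in the table, at a sum of 3.52 to 5.37 CPM with Timd4 at most 1.25 CPM. Of these, Icam2 was called higher (3.19, 4.11 and 4.07 CPM in the KO and 1.33 to 1.74 CPM in the WT libraries). Selp (0.495, 0.154 and 0.0521 against 1.34 to 2.19 CPM) was below WT in all 3 KO libraries. The adipocyte markers summed to at most 0.308 CPM. Platelet markers did not move together: Itga2b (4.40, 0.873 and 1.15 CPM in the KO and 20.6 to 40.4 CPM in the WT libraries) and Gp9 were called lower, while Pf4 was at 44.9 CPM in KO replicate 1, 14.5 and 16.2 CPM in the other KO and 17.6 to 21.8 CPM in the WT libraries. Mesothelial and fibroblast markers summed to 0.826, 9.50 and 15.1 CPM in the KO and 2.16 to 3.84 CPM in the WT libraries, and T and NK cell markers to 0.220, 1.03 and 1.15 and to 0.407 to 0.924 CPM; both sums were below WT in KO replicate 1 and above it in the other KO libraries, an order also met among the 33 genes. The 4 Y-linked genes summed to 8, 1 and 3 counts in the KO and 2158, 2164 and 2854 in the WT libraries, so sex and label cannot be told apart. The part of these differences in the results was not tested, and in bulk RNA fewer cells of a type and less RNA per cell cannot be told apart.

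In the comparison of the 3 KO with the 3 WT libraries, 1 of the 33 genes was called at a Benjamini-Hochberg adjusted p under 0.05 with edgeR's quasi-likelihood test. This was Fads2, higher in KO by 3.27-fold. Over all tested genes, 3.32% were called, 2.26% higher and 1.06% lower. At an unadjusted p under 0.05 there were 8 of the 33 genes (Fads2, Fads1, Elovl5, Fasn and Srebf2 with positive and Hmgcs1, Idi1 and Scd2 with negative differences), beside 22.7% of all tested genes. The median log2 difference of the 33 genes was 0.16, beside -0.01 over all tested genes, with 21 positive and 12 negative. By count of calls, the 33 genes were near the background.

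The role groups did not move as one. By CPM, all 3 KO libraries lay above all 3 WT libraries for 4 genes (Fads1, Fads2, Elovl5 and Srebf1), beside 18.4% of all tested genes. All 3 lay below for 5 (Hmgcs1, Idi1, Sc5d, Dhcr7 and Scd2), beside 12.6%. Both shares, 12.1% and 15.2% of the 33 genes, were close to or under the background.

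**Figure D1:**
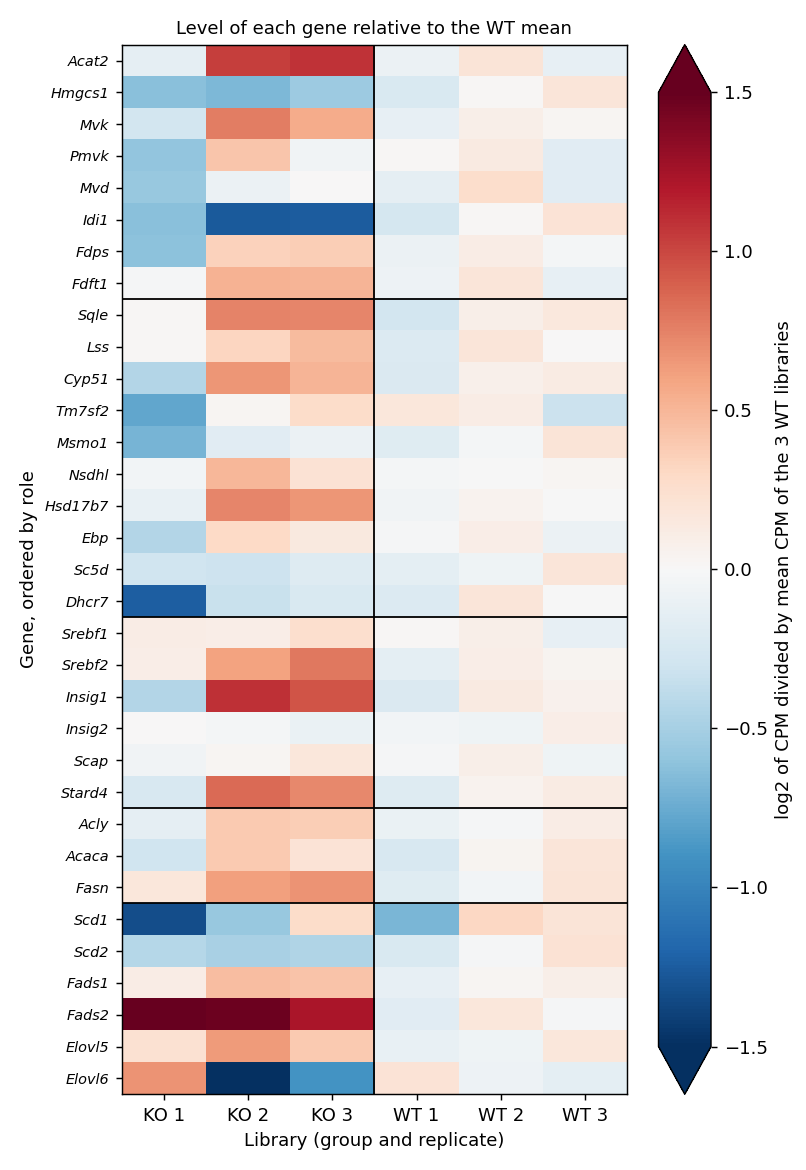
Each of the 33 genes (vertical axis, grouped by role from the mevalonate steps at the top to desaturation and elongation at the bottom) in each library (horizontal axis), coloured by log2 of its CPM divided by the mean CPM of the 3 WT libraries. KO replicates 2 and 3 resemble each other and are mostly above WT, while KO replicate 1 is below all WT libraries for 21 genes, and Hmgcs1, Idi1 and Scd2 are below WT in all 3 KO libraries.

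The desaturation and elongation group held the called gene. Fads2 (gene ID 56473, chromosome 19, 10062765 to 10101503, minus strand, GRCm38), the delta-6 desaturase that starts the conversion of dietary linoleic and alpha-linolenic acid to longer polyunsaturated fatty acids, had 16.0, 9.40 and 7.97 CPM in the KO libraries (in order of replicate, here and below) against 3.02, 3.81 and 3.36 CPM in the WT libraries. The groups did not overlap, and KO replicate 1 was the highest. The KO libraries averaged 11.1 ± 4.29 CPM and the WT libraries 3.40 ± 0.395 CPM (SD, n = 3 each), a log2 difference of 1.71 (SE 0.306, edgeR adjusted p = 0.0464). Without KO replicate 1 the difference was 1.37 (adjusted p = 0.000503), but with any other single library left out Fads2 was not called. After correction for transcript GC content and length it was 1.53 (adjusted p = 0.0835).

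Fads1, the delta-5 desaturase of the same pathway, was at 143, 183 and 178 CPM in the KO and 121, 135 and 141 CPM in the WT libraries. The groups did not overlap, but the gap between the lowest KO and the highest WT library was narrow, and the log2 difference of 0.34 did not pass the test (SE 0.123, adjusted p = 0.174). After the GC and length correction it was 0.10. Fads1 and Fads2 are neighbours on chromosome 19 in opposite orientation, with 81373 bases between them, and Fads3 lies 2651 bases beyond Fads2. Fads3, a desaturase that acts on sphingoid bases, was at 5.34, 5.65 and 5.94 CPM in the KO and 2.97, 4.22 and 2.88 CPM in the WT libraries (log2 difference 0.75, SE 0.218, adjusted p = 0.120). All 3 genes of this cluster of 156020 bases had KO libraries above WT, and the test called only Fads2.

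Levels of the pair can be compared per length. The TPM (a level scaled by transcript length and library) of Fads1 divided by that of Fads2 was 33.2, 29.3 and 34.6 in the WT libraries and 7.39, 16.1 and 18.4 in the KO libraries. Fads1 was the more abundant transcript in all 6 libraries, and the ratio of the KO libraries lay below that of WT in each.

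Elovl5, the elongase that lengthens the products of Fads2, was at 95.9, 128 and 107 CPM in the KO and 75.7, 77.9 and 91.7 CPM in the WT libraries. The groups did not overlap, with a log2 difference of 0.43 (SE 0.139, adjusted p = 0.143). Elovl6, which lengthens saturated and monounsaturated fatty acids, was at 6.05, 1.33 and 2.03 CPM in the KO and 4.36, 3.58 and 3.42 CPM in the WT libraries. Here KO replicate 1 was above and KO replicates 2 and 3 were below all WT libraries, and the log2 difference of -0.27 (SE 0.576, adjusted p = 0.780) had a 95% interval of -1.69 to 1.15. The TPM of Elovl5 divided by that of Elovl6 was 35.7, 213 and 119 in the KO and 39.2, 49.2 and 60.3 in the WT libraries. This ratio was below WT in KO replicate 1 and above it in the other KO libraries.

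The stearoyl-CoA desaturase genes Scd2 and Scd1, whose products make monounsaturated fatty acids, are also on chromosome 19, with 87585 bases between them. Scd2 (gene ID 20250, 44293676 to 44306864) was at 123, 118 and 121 CPM in the KO and 141, 163 and 191 CPM in the WT libraries. By CPM all KO libraries were below all WT libraries, and the KO libraries were close to one another (121 ± 2.79 against 165 ± 25.3 CPM). By TPM the groups overlapped, at 41.8, 36.3 and 37.8 in the KO and 39.1, 46.6 and 58.3 in the WT libraries. The log2 difference of -0.45 did not pass the test (SE 0.125, adjusted p = 0.108). It was -0.66 and passed after the GC and length correction (adjusted p = 0.0435). On the log2(TPM + 1) scale it was -0.29 and did not pass (limma adjusted p = 0.255). Scd1 was at 1.82, 3.08 and 5.53 CPM in the KO and 2.85, 5.66 and 5.23 CPM in the WT libraries, which overlapped (log2 difference -0.40, SE 0.474, adjusted p = 0.615). On the TPM scale Scd2 exceeded Scd1 by 19.3 to 59.7 times in the KO and 25.5 to 43.4 times in the WT libraries, so the predominance of Scd2 was present in both groups.

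**Figure D2:**
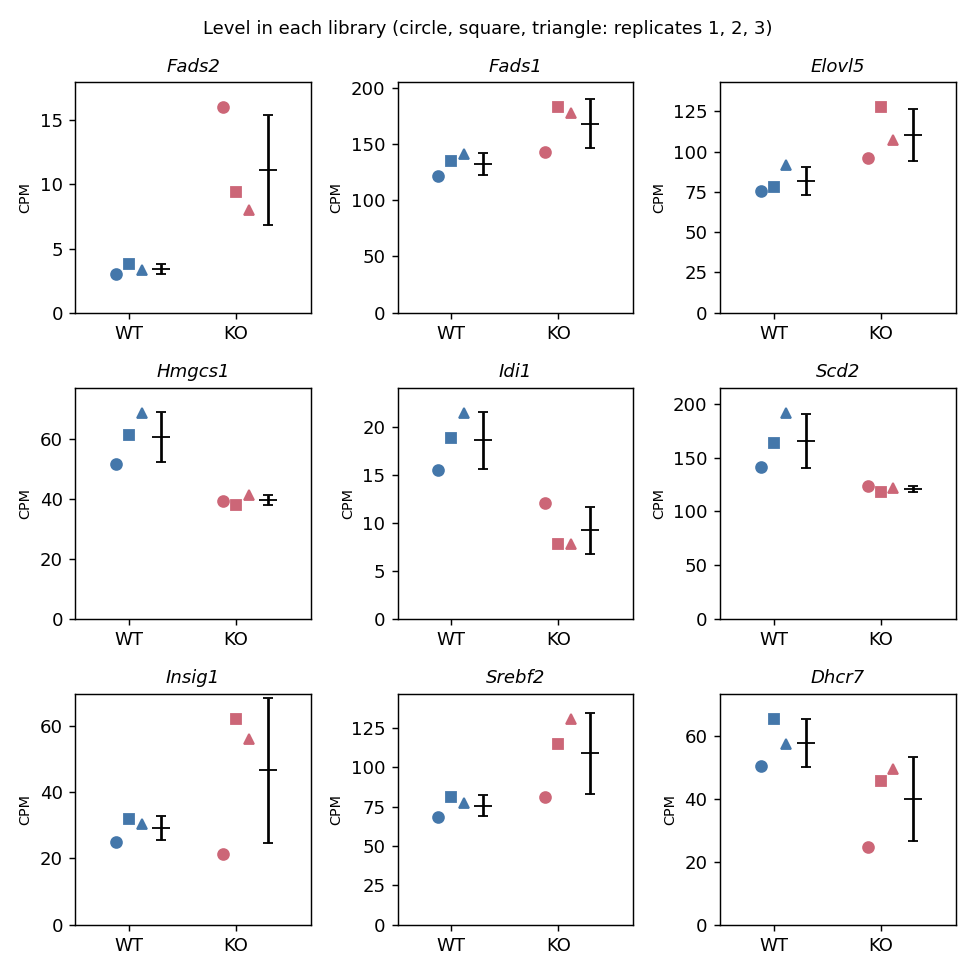
CPM (vertical axis, from 0, own scale in each panel) of 9 genes in each library, WT in blue and KO in red, with replicates 1, 2 and 3 as circle, square and triangle, and the mean and SD of the 3 libraries in black. Fads2 is above WT in all 3 KO libraries and Hmgcs1, Idi1 and Scd2 are below it, while KO replicate 1 (circle) is apart from the other KO libraries for Insig1, Srebf2 and Dhcr7.

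None of the 8 genes of the mevalonate and prenyl steps was called by edgeR (2 at an unadjusted p under 0.05, Hmgcs1 and Idi1), and their differences ran in both directions, 4 positive and 4 negative with a median of 0.04. Hmgcs1 (gene ID 208715, chromosome 13, 119690351 to 119708260, plus strand), the cytosolic HMG-CoA synthase whose promoter is shown above, was at 39.1, 38.0 and 41.4 CPM in the KO and 51.8, 61.4 and 68.7 CPM in the WT libraries. All KO libraries were below all WT libraries and differed little among themselves. Its log2 difference was -0.62 (SE 0.125), a fold of 0.652, and just missed the threshold (adjusted p = 0.0590).

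Idi1 (gene ID 319554, chromosome 13, 8884914 to 8892396, plus strand), the isopentenyl diphosphate isomerase, was at 12.1, 7.80 and 7.82 CPM in the KO and 15.5, 18.9 and 21.5 CPM in the WT libraries. It had the lowest log2 difference of the 33 genes, -1.01 (SE 0.231), a fold of 0.496, with an adjusted p of 0.0739. The counts of Idi1 were not whole in 5 libraries, so its counts are estimates.

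Hmgcs1 and Idi1 have transcripts of low GC content, 43.1% and 41.9%, in a range of 41.9% to 59.1% over the 33 genes. After the GC and length correction their log2 differences were -0.35 and -0.62 (adjusted p = 0.218 and 0.0580). In the authors' deposited table, from DESeq2, both were past a q-value of 0.05 (0.0036 and 0.0032), as was Fads2 (6.7e-05), which is 3 of the 33 genes beside 8% of all genes. DESeq2 run here called these 3 and Scd2, 4 of the 33 (1 higher and 3 lower), beside 8.7% of all genes with a count (5.73% higher and 2.97% lower). The call of the lower genes thus depended on the test used.

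Acat2, the cytosolic acetoacetyl-CoA thiolase at the entry of the pathway, had the opposite order. It was at 5.94, 13.5 and 13.9 CPM in the KO and 6.16, 7.45 and 6.01 CPM in the WT libraries. KO replicates 2 and 3 were about the same and above WT, and KO replicate 1 was just below WT, which gave a log2 difference of 0.76 with a wide interval (-0.08 to 1.60, adjusted p = 0.253). Its counts were not whole in all 6 libraries. Mvk, mevalonate kinase, was at 5.01, 10.4 and 8.97 CPM in the KO and 5.58 to 6.47 CPM in the WT libraries, and Fdps, farnesyl diphosphate synthase, at 17.1, 33.5 and 33.9 and at 24.8 to 28.4 CPM. Both had the order of Acat2, and their log2 differences of 0.42 and 0.10 did not pass the test (adjusted p = 0.409 and 0.833).

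Fdft1, squalene synthase and the first step committed to sterols, was at 17.2, 25.0 and 24.8 CPM in the KO and 15.9 to 19.7 CPM in the WT libraries (log2 difference 0.36, adjusted p = 0.293). Pmvk and Mvd, the kinase and decarboxylase that follow Mvk, were at 5.999, 12.1 and 8.70 CPM and at 16.8, 23.6 and 25.0 CPM in the KO libraries. Their WT ranges were 8.05 to 9.94 and 22.2 to 30.0 CPM, and their log2 differences were -0.02 and -0.20 (adjusted p = 0.966 and 0.559). For both, KO replicate 1 was below all WT libraries.

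None of the 10 sterol ring genes was called by edgeR or DESeq2 (0 at an unadjusted p under 0.05), with 6 positive and 4 negative differences and a median of 0.14. Sqle, the squalene epoxidase that is a rate-limiting step, was at 14.7, 24.2 and 24.1 CPM in the KO and 11.9, 15.4 and 16.2 CPM in the WT libraries. KO replicates 2 and 3 were above all WT libraries and KO replicate 1 was within their range (log2 difference 0.54, SE 0.237, adjusted p = 0.244). Lss, lanosterol synthase, had the same order, at 18.9, 23.4 and 26.2 CPM in the KO and 16.3 to 21.2 CPM in the WT libraries (log2 difference 0.28, adjusted p = 0.345).

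Cyp51, the lanosterol demethylase, was at 23.4, 50.2 and 45.2 CPM in the KO and 27.3 to 34.5 CPM in the WT libraries. Hsd17b7, the sterol 3-keto reductase, was at 3.52, 6.32 and 5.99 CPM in the KO and 3.66 to 3.93 CPM in the WT libraries. Nsdhl, the sterol dehydrogenase of the demethylation complex, was at 11.999, 17.4 and 14.3 CPM in the KO and 12.1 to 12.6 CPM in the WT libraries. For these 3 genes and for Ebp, the sterol isomerase (41.4, 68.9 and 62.0 against 52.7 to 60.4 CPM), KO replicate 1 was below and the other KO libraries were above all WT libraries. Their log2 differences lay between 0.03 and 0.48 and their adjusted p between 0.327 and 0.928. Nsdhl and Ebp are on the X chromosome.

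For the last steps of the ring all KO libraries lay below all WT libraries by CPM, while by TPM the groups overlapped. Dhcr7, the reductase that makes cholesterol from its last precursor, was at 24.5, 45.7 and 49.3 CPM in the KO and 50.2, 65.3 and 57.5 CPM in the WT libraries. KO replicate 1 was the lowest, and the log2 difference of -0.53 did not pass the test (SE 0.280, adjusted p = 0.308). Sc5d, the desaturase one step earlier, was at 23.3, 23.1 and 25.2 CPM in the KO and 26.0, 27.6 and 32.7 CPM in the WT libraries (log2 difference -0.27, adjusted p = 0.2504). Its difference was 0.05 after the GC and length correction, so its direction depended on that setting.

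Msmo1, the sterol C4 methyl oxidase, was at 44.1, 63.6 and 67.2 CPM in the KO and 63.2, 70.1 and 81.7 CPM in the WT libraries (log2 difference -0.30, adjusted p = 0.377). Tm7sf2, a sterol reductase, was at 6.88, 12.01 and 14.3 CPM in the KO and 9.43 to 13.3 CPM in the WT libraries (log2 difference -0.09, adjusted p = 0.863). Both had their lowest value in KO replicate 1. By TPM, Msmo1 was the most abundant of the 33 transcripts in WT (67.8 ± 12.1 TPM) and Fads1 came next (62.0 ± 7.42 TPM), a difference within the spread of the libraries. At the other end were Hsd17b7 (1.34 ± 0.110 TPM) and Elovl6 (0.993 ± 0.0929 TPM).

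Among the 6 genes of sensing and transport, 5 had a positive difference and none was called by edgeR or DESeq2 (1 at an unadjusted p under 0.05, Srebf2). Srebf2, which encodes SREBP2, the main activator of the sterol branch, was at 80.9, 115 and 131 CPM in the KO and 68.4, 81.0 and 77.5 CPM in the WT libraries. KO replicates 2 and 3 were above WT and KO replicate 1 lay just within the WT range. The log2 difference was 0.53 (SE 0.190, adjusted p = 0.177). Srebf1, which encodes SREBP1, the main activator of the fatty acid branch, was at 73.8, 73.4 and 81.8 CPM in the KO and 69.6, 72.8 and 63.1 CPM in the WT libraries. The groups did not overlap, but the log2 difference was 0.16 (SE 0.0963, adjusted p = 0.364), and it was -0.03 after the GC and length correction without KO replicate 1. The TPM of Srebf2 divided by that of Srebf1 was 0.885, 1.002 and 1.11 in WT and 0.996, 1.44 and 1.47 in KO, so the 2 transcripts were about equal in WT and in KO replicate 1.

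Insig1, the sterol-regulated INSIG that holds the SCAP complex in the endoplasmic reticulum and is itself an SREBP target, was at 21.5, 62.1 and 56.1 CPM in the KO and 25.1, 32.0 and 30.4 CPM in the WT libraries. KO replicate 1 was below all WT libraries, and the other KO libraries were at 2.13 and 1.92 times the WT mean. The log2 difference was 0.68 with a 95% interval of -0.31 to 1.66 (SE 0.398, adjusted p = 0.349). Insig2, its paralog, was at 34.0, 33.2 and 31.5 CPM in the KO and 32.7, 32.4 and 36.2 CPM in the WT libraries. Its values overlapped, with a log2 difference of -0.04 (95% interval -0.26 to 0.19, adjusted p = 0.814) that was positive with upper-quartile factors and on the TPM scale. The TPM of Insig1 divided by that of Insig2 was 0.627, 1.88 and 1.80 in the KO and 0.746, 0.967 and 0.821 in the WT libraries. Insig1 thus exceeded Insig2 in KO replicates 2 and 3 and in none of the other 4 libraries.

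Scap, the escort protein of the SREBPs, was at 91.9, 96.8 and 107 CPM in the KO and 93.7, 101 and 90.8 CPM in the WT libraries, which overlapped. Its log2 difference was 0.05 (SE 0.0951, 95% interval -0.18 to 0.28, adjusted p = 0.742), and -0.08 after the GC and length correction. Stard4, a carrier of sterol between membranes, was at 12.7, 27.2 and 24.8 CPM in the KO and 13.2, 15.6 and 16.4 CPM in the WT libraries (log2 difference 0.52, SE 0.297, adjusted p = 0.340). It had the order of Insig1, with KO replicate 1 lowest of the 6.

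The 3 genes of fatty acid synthesis all had positive differences and none was called by edgeR or DESeq2 (1 at an unadjusted p under 0.05, Fasn). Fasn, fatty acid synthase, was at 108, 146 and 152 CPM in the KO and 84.3, 92.6 and 109.6 CPM in the WT libraries. KO replicate 1 was within the WT range and the others were above it (log2 difference 0.50, SE 0.168, adjusted p = 0.155). Acly, which cleaves citrate to acetyl-CoA, was at 134, 192 and 189 CPM in the KO and 137, 145 and 159 CPM in the WT libraries (log2 difference 0.23, adjusted p = 0.418). Acaca, acetyl-CoA carboxylase, was at 37.8, 60.8 and 53.4 CPM in the KO and 39.0, 47.5 and 52.3 CPM in the WT libraries (log2 difference 0.13, adjusted p = 0.702). For Acly and Acaca, KO replicate 1 was below all WT libraries. These 3 genes and Srebf1 are all on chromosome 11.

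The order of the libraries recurred across the roles, except in desaturation and elongation. KO replicate 1 was below both other KO libraries for 25 of the 33 genes, beside 44.5% of all tested genes, and above both for 5, beside 44.8%. It was below all WT libraries for 21 genes (63.6%), beside 30.6%, within their range for 7, beside 33.6%, and above them for 5, beside 35.8%. Of the genes below WT in that library, 7 were among the 8 mevalonate and prenyl genes and 8 among the 10 ring genes. Of the 6 desaturation and elongation genes, 2 were below all WT libraries there and 4 were above them (Fads1, Fads2, Elovl5 and Elovl6). KO replicates 2 and 3 were both above all WT libraries for 20 genes (60.6%), beside 33.9%, and both below for 6 (18.2%), beside 35.6%. For 11 genes (33.3%), namely Acat2, Mvk, Fdps, Cyp51, Nsdhl, Hsd17b7, Ebp, Insig1, Stard4, Acly and Acaca, KO replicate 1 was below and the other KO libraries were above all WT libraries, beside 7.52% of all tested genes. None of the desaturation and elongation genes was among them. All ranks in this paragraph are by CPM. By TPM, KO replicate 1 was below all WT libraries for Fdps and Ebp of these genes and not for the others. Insig1, for example, was at 15.8 TPM in KO replicate 1 and 15.1 to 20.0 TPM in WT. The genes share these libraries, so the shares describe the libraries and carry no test.

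The same order of libraries was seen in the summed TPM of the sterol genes. The 18 sterol genes from Acat2 to Dhcr7 summed to 297, 424 and 428 TPM in the KO and 328, 388 and 397 TPM in the WT libraries, or 0.801, 1.14 and 1.15 times the WT mean in KO replicates 1, 2 and 3. KO replicate 1 was the lowest of the 6 libraries and the other KO libraries were the highest. The sensing and transport genes summed to 150, 181 and 191 TPM in the KO and 120, 136 and 137 TPM in the WT libraries. The fatty acid synthesis genes summed to 85.0, 111 and 111 TPM in the KO and 67.2, 74.8 and 88.7 TPM in the WT libraries. Desaturation and elongation genes summed to 200, 216 and 204 TPM in the KO and 140, 160 and 190 TPM in the WT libraries. For these and for the sensing and transport genes no KO library was below a WT library. On this scale, with a pseudocount of 1, the median log2 difference of the 33 genes was 0.29, beside 0.12 over all tested genes.

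**Figure D3:**
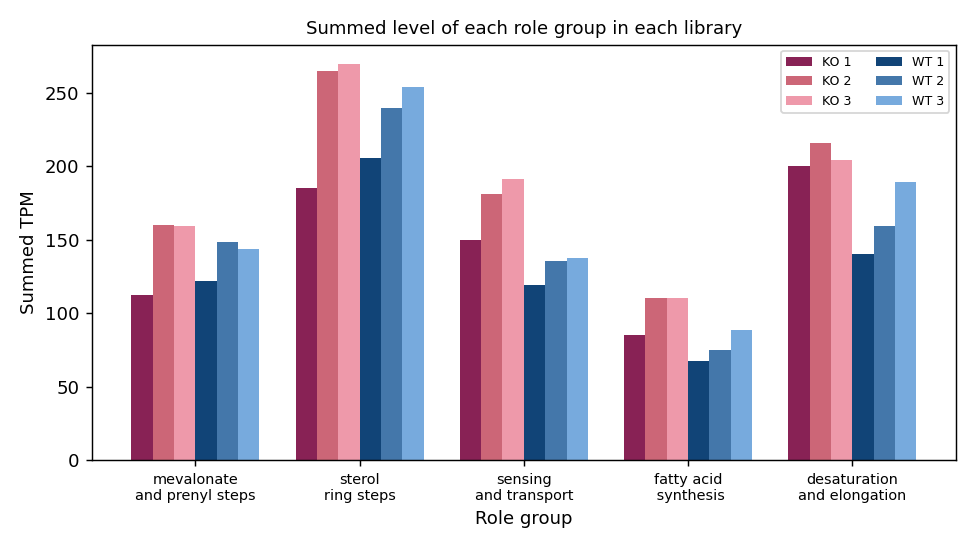
Summed TPM (vertical axis, from 0) of the genes of each of the 5 role groups (horizontal axis) in each library, KO in reds and WT in blues, 1 bar per library and no error bars. For the mevalonate and ring groups KO replicate 1 is lowest and KO replicates 2 and 3 are highest. In the sensing and transport group and the desaturation and elongation group all KO bars are above the WT bars.

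Because KO replicate 1 stood apart, the comparison was repeated without it, with 2 KO and 3 WT libraries. With edgeR, 21 of the 33 genes were then called, beside 49.6% of the 11677 genes tested. Higher in KO were 17, beside 23.6% of all tested genes, and lower were 4 (Hmgcs1, Idi1, Scd2 and Elovl6), beside 26%. The median log2 difference of the 33 genes was 0.37, beside 0.02 over all tested genes. With any other single library left out, edgeR called none of the 33 genes, and 4 to 7 had an unadjusted p under 0.05.

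In that smaller comparison the higher genes spanned every role. They were Acat2, Mvk, Fdps and Fdft1 of the mevalonate and prenyl steps, Sqle, Lss, Cyp51, Nsdhl and Hsd17b7 of the ring steps, Srebf2, Insig1 and Stard4 of sensing and transport, Acly and Fasn of fatty acid synthesis, and Fads1, Fads2 and Elovl5. Acat2 had a log2 difference of 1.08 (SE 0.142, adjusted p = 0.000614) and Insig1 of 1.03 (SE 0.124, adjusted p = 0.000379). Stard4 was at 0.80, Sqle at 0.75, Srebf2 at 0.72 and Fasn at 0.65, with adjusted p between 0.000891 and 0.003. Among the lower genes, Idi1 was at -1.24 (SE 0.161, adjusted p = 0.000566), Elovl6 at -1.15, Hmgcs1 at -0.60 and Scd2 at -0.45. Insig2 (-0.05), Scap (0.12) and Srebf1 (0.19) were not called. Of the called genes, Hmgcs1, Idi1, Scd2, Fads1, Fads2 and Elovl5 had the same sign of difference from the WT mean in every KO library. So did Sqle, Lss, Srebf2 and Fasn, at 1.01, 1.01, 1.07 and 1.13 times the WT mean in KO replicate 1. For these, KO replicate 1 was within the WT range. The other called genes, among them Acat2, Insig1, Stard4 and Elovl6, had the opposite sign in KO replicate 1.

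**Figure D4:**
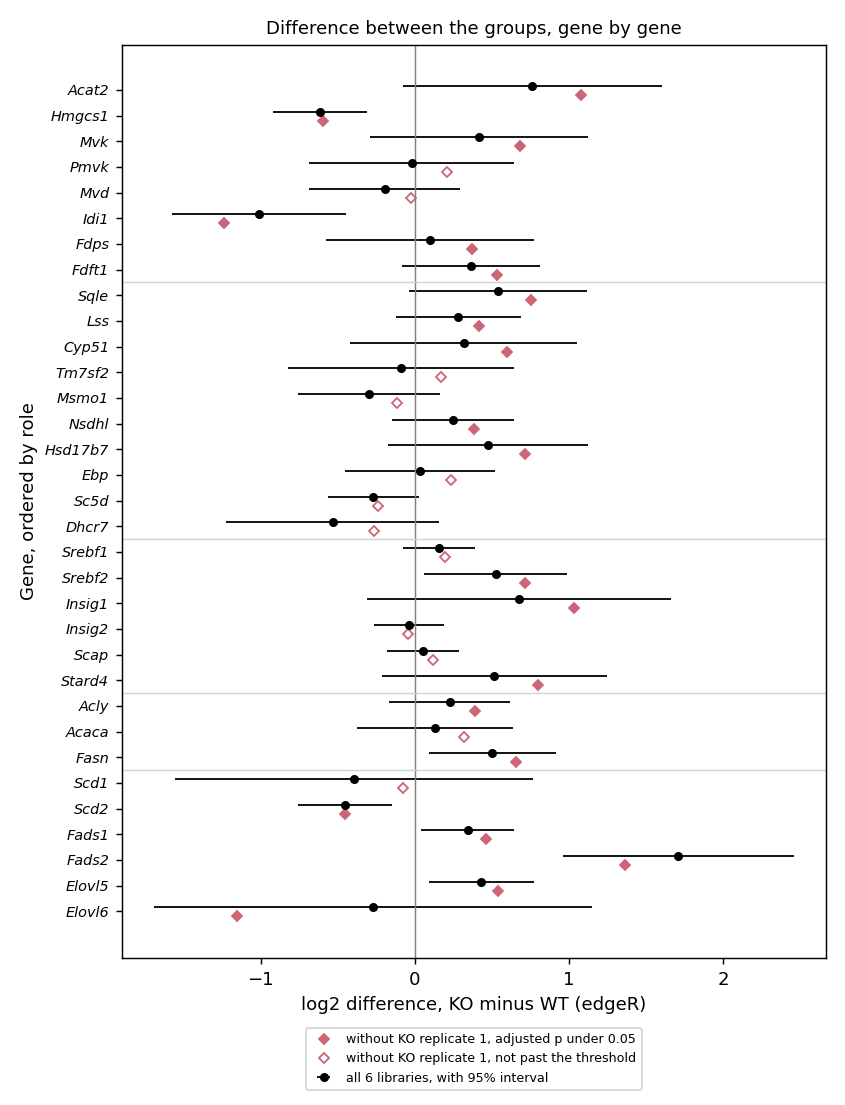
Log2 difference, KO minus WT, from edgeR (horizontal axis) of each gene (vertical axis, ordered by role), with all 6 libraries as black points with 95% intervals and without KO replicate 1 as red diamonds, filled where the adjusted p was under 0.05. Fads2 is at 1.71 and Idi1 at -1.01 with all libraries, and 21 diamonds are filled, 17 of them to the right of 0.

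The GC content and length of transcripts were related to the differences, so the fits were repeated with a smooth correction for both. GC content and length accounted for 21.2% of the variance of the difference of KO replicates 2 and 3 from WT over genes, and for 2.32% of that of KO replicate 1. With the correction and all 6 libraries, 1 of the 33 genes was called, Scd2 lower, beside 5.04% of all tested genes (2.64% higher and 2.4% lower). The median log2 difference of the 33 genes was 0.02, beside -0.08 over all tested genes. Dhcr7 was at -0.80 (adjusted p = 0.0699), lower than without the correction, and Hmgcs1 was closer to 0.

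With the correction and without KO replicate 1, 17 of the 33 genes were called, beside 54.9% of all tested genes. Of these 13 were higher, beside 20.1%, and 4 lower (Idi1, Scd2, Elovl6 and Dhcr7), beside 34.8%. The higher genes were Acat2, Mvk, Sqle, Cyp51, Nsdhl, Hsd17b7, Sc5d, Srebf2, Insig1, Stard4, Fasn, Fads2 and Elovl5. Stard4 was at 1.09 (SE 0.107, adjusted p = 2.2e-05), Insig1 at 0.75 and Fads2 at 1.01. Hmgcs1, Fads1, Fdps, Fdft1, Lss and Acly, called without the correction, were not called with it, while Dhcr7 and Sc5d were called only with it. With limma-voom and all 6 libraries 0 of the 33 genes were called, beside 3.11% of all tested genes, and 8 had an unadjusted p under 0.05.

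**Figure D5:**
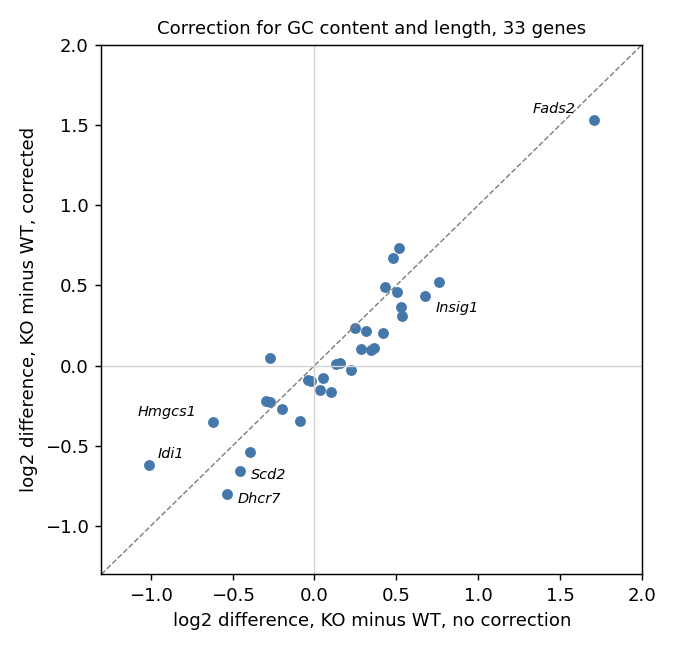
Log2 difference, KO minus WT, with all 6 libraries, without (horizontal axis) and with (vertical axis) the correction for GC content and length, 1 point per gene, and a dashed line where both are equal. Idi1 and Hmgcs1 lie above the line, closer to 0 after correction, and Scd2 and Dhcr7 lie below it at -0.66 and -0.80.

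Other genes of the pathways were taken from 4 lists of 57 genes in all, each of which was tested. With all 6 libraries 1 of the 57 was called, beside the 3.32% given above. This was Abcg1, the LXR-induced exporter of sterol to lipoproteins, at 384, 289 and 314 CPM in the KO and 527, 520 and 598 CPM in the WT libraries. All KO libraries were below all WT libraries, and Abcg1 fell by 0.74 on the log2 scale (SE 0.134, adjusted p = 0.0471). It was not called at a mean of at least 10 CPM (adjusted p = 0.0546), on the TPM scales (0.0729 and 0.0706) or with any library other than KO replicate 1 left out (0.134 to 0.234). It was the 1 called gene of the 13 of sterol trafficking, storage and LXR, whose median log2 difference was -0.21, with 3 at an unadjusted p under 0.05. DESeq2 called 3 of this list, Abcg1 and Soat1 lower and Ch25h higher. Ch25h had few counts, at 0.550, 1.13 and 1.25 CPM in the KO and 0.174, 0.173 and 0 CPM in the WT libraries. Its log2 difference was 2.99 (edgeR adjusted p = 0.0891), and it was called on both TPM scales.

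The other 3 lists had no gene called by edgeR, with 3, 1 and 4 at an unadjusted p under 0.05 in the order below, and DESeq2 called 2, 1 and 1. In the late sterol and isoprenoid branch (10 genes, median -0.14), Lbr, a nuclear membrane protein with sterol reductase activity, had the smallest p, at 21.6, 40.7 and 34.6 CPM in the KO and 11.5, 12.1 and 14.7 CPM in the WT libraries (log2 difference 1.34, SE 0.254, adjusted p = 0.0525). In SREBP processing and degradation (14 genes, median 0.05) it was Mbtps1, the protease that makes the first cut in SREBPs, at 90.3, 107 and 103 CPM in the KO and 68.7, 72.0 and 77.4 CPM in the WT libraries (log2 difference 0.46, SE 0.1003, adjusted p = 0.0671). In fatty acid supply, activation and elongation (20 genes, median 0.16) it was Aacs, acetoacetyl-CoA synthetase, at 37.6, 42.3 and 45.2 CPM in the KO and 31.9, 31.3 and 29.1 CPM in the WT libraries (log2 difference 0.44, SE 0.106, adjusted p = 0.0833). For each of these 3 genes all KO libraries were above all WT libraries. Without KO replicate 1, 27 of the 57 genes were called, beside 49.6% of all tested genes.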

How the data were processed

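Messenger RNA libraries of sorted and cultured RELM-α+ peritoneal macrophages were grouped as KO or WT by their titles, 3 libraries each. The submitters' processing notes name fastp 0.18.0 and build GRCm39. The sources used here do not give the aligner, the counter, its handling of strand or the annotation release. Gene coordinates in the table are those of GRCm38: of 15422 genes matched by gene ID to RefSeq GRCm38.p6, 13128 had the same start, as did 30 of the 33 genes reported.

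Estimated counts per gene, without normalization, were deposited by the authors in 1 table, per the file headers. In each library 4.82% to 5.49% of the values were not whole, and all were rounded. TPM values that the authors deposited, per the file headers, were used to compare levels between genes. The FPKM values deposited by the authors were not used. The log2 fold changes, p-values and q-values deposited by the authors come from DESeq2, per the file headers, and only the q-values and the signs of the log2 values were used. Reads may be shared with overlapping genes for Pmvk, Fdft1, Cyp51, Tm7sf2, Nsdhl, Ebp, Srebf1 and Acaca. There were 0 columns of other samples.

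Genes were filtered with filterByExpr (minimum count 10), scaled with TMM and tested in edgeR 4.0.16 (R 4.3.3) by quasi-likelihood, group as the only term, with Benjamini-Hochberg adjustment over all genes tested. CPM are on TMM-scaled sizes, and log2 differences are KO minus WT. The fit was tested on simulated data. The members and gene lists were chosen with earlier results of these data known. Values are given for all 33 genes, and from the 4 other lists for genes called by edgeR or the gene with the smallest p. Fads3 was added as a neighbour of Fads2, and Ch25h as a gene called by DESeq2, after their values were seen.

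Other settings were DESeq2 1.42.0, limma-voom (limma 3.58.1), RLE or upper-quartile factors, no filter or a minimum mean of 10 CPM, a replicate block, each library left out, log2(TPM + 1) and log2(TPM + 0.1) with limma, an adjusted p under 0.01, and a smooth correction per library for GC content and length (mgcv 1.9.3). GC content and length were those of the longest GENCODE M21 transcript, found for 98.7% of tested genes and all 33 members. The correction without KO replicate 1 was added after seeing the data. Promoter sequences are from RefSeq, GRCm38.p6; protein sequences were not used here.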

Additional observations from a re-analysis of the deposited data

How the results depend on the processing

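With all libraries 379 genes, 1 of the 33 sterol and fatty acid genes and 1 of the 57 other pathway genes were called. In the same order the counts were 1344, 4 and 7 with DESeq2, 229, 0 and 0 at a mean of at least 10 CPM (which removes Fads2), and 15, 0 and 0 at an adjusted p under 0.01. They were 576, 1 and 3 with the GC and length correction and 6409, 17 and 30 with that correction and without KO replicate 1, an alternative added after seeing the data. With limma-voom 0 of the 33 genes were called. On the TPM scale 987 genes and 5 other pathway genes were called with a pseudocount of 1, and 1071 and 4 with 0.1. Leaving out 1 library in turn gave 5 to 5793 genes, 0 to 21 of the 33 genes and 0 to 27 other pathway genes, and the highest counts were those without KO replicate 1. Calls split into 258 higher and 121 lower in the main comparison, 302 and 274 with the GC and length correction, 2761 and 3032 without KO replicate 1, and 866 and 121 on the log2(TPM + 1) scale.

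With the replicate number as a block 0 genes, 0 of the 33 genes and 0 other pathway genes were called by edgeR, with 1976 genes and 10 of the 33 at an unadjusted p under 0.05. With the block and the GC and length correction the counts were 16, 0 and 0. Deviations of same-numbered libraries from their group means correlated at -0.16, 0.25 and -0.27, and not every library correlated best with its own number. Deviations within a group cancel out, and KO replicate 1 stood apart, so these values depend on one another. They cannot show whether the numbers pair the libraries.

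Of the 33 genes, 22 kept the sign of their difference in every alternative (15 positive and 7 negative) and 11 did not (Pmvk, Fdps, Tm7sf2, Ebp, Sc5d, Srebf1, Insig2, Scap, Acly, Acaca and Elovl6). Among the genes followed singly, Insig2 turned to 0.020 with upper-quartile factors and 0.072 and 0.074 on the TPM scales, and ranged from -0.089 to 0.009 (without WT replicate 3) with 1 library left out. Scap turned to -0.077 with the GC and length correction, alone or with the replicate block, to -0.091 with it and without KO replicate 1, and ranged from -0.048 (without KO replicate 3) to 0.116 with 1 library left out. Srebf1 turned to -0.025 with the correction and without KO replicate 1, Elovl6 ranged from -1.154 to 0.064 (without KO replicate 2) with 1 library left out, and Spi1 turned to 0.048 on both TPM scales. The cause was not tested. All-gene medians moved to 0.118 and 0.131 on the TPM scales and -0.123 with the correction and without KO replicate 1. Low counts limit Fads2, Scd1, Elovl6 and Hsd17b7, and 3 libraries per group limit every comparison.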
